A study of Mus musculus with 6 samples.

Results

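The genes for the neurotrophins and their receptors were followed in the hippocampus of adult mice that had received ethanol as pups. The set was chosen by name and holds 7 genes, namely Bdnf, Ntf3, Ntf5, Ntrk2, Ntrk3, Ngfr and Sort1. Of these, 6 had a probe set paired with that single symbol, among 19938 genes so named, and Ntf3 was not analysed here. Each of the 6 was read by only 1 probe set. Neurotrophins are secreted proteins cut from longer precursors, and they keep neurons alive, guide their outgrowth and tune their synapses. The mature forms bind Trk receptors, whose kinase starts growth and survival signals, while the precursors bind p75 (Ngfr) together with sortilin (Sort1) and can lead to cell death. In the hippocampus the pair of BDNF and its receptor TrkB (Ntrk2) is best known for its part in long-term potentiation and memory.

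All mice were male C57Bl/6J and 70 days old when the hippocampus was taken. The ethanol group had been injected under the skin with ethanol in saline in the week after birth, at 2.5 g/kg per injection, and the saline group with saline alone. Pups of the same litter, matched for sex and weight, had been divided between the groups. RNA from 3 males of different litters was pooled for each array, and each group had 3 arrays. In all, 18 mice were used, 9 in each group. Values are log2 expression, which the authors obtained by summarizing the probes of each gene on Mouse Gene 1.0 ST arrays. Probe sets differ in how well they bind, so the level of a gene was compared between pools and not with the level of another gene.

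The tissue was checked against marker genes. All 17 measured markers of hippocampal pyramidal and granule cells and all 12 of neurons lay above 5.36, the level below which 95% of olfactory and vomeronasal receptor genes lie and which is called the level of receptor genes here. All 6 measured markers of cholinergic neurons of the basal forebrain, whose fibres carry p75 into the hippocampus, lay below it. Over all genes 2.8% passed as higher after ethanol and 2.41% as lower (limma, unadjusted p under 0.05). Of 20 markers of the thalamus 13 passed as higher and 0 as lower. Their mean log2 deviation from saline was 0.66, 0.24 and 0.11 for ethanol pools 1, 2 and 3, against -0.02 to 0.02 for the saline pools. Of 16 markers of the choroid plexus 3 passed as higher and 0 as lower, and all 16 had a mean above saline. Their mean deviation was 1.05, -0.29 and 0.62 for ethanol pools 1, 2 and 3 and between -0.17 and 0.19 for the saline pools. Of 16 markers of oligodendrocytes and their precursors 0 passed as higher and 4 as lower, and 14 had a mean below saline. Their mean deviation was -0.06, -0.14 and -0.02 for ethanol pools 1, 2 and 3. It was -0.05, 0.05 and -0.002 for saline pools 1, 2 and 3, so that the groups overlapped in this mean. Pools of the groups were separate in 4 of these 16 markers, against 10.4% of all genes.

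None of the 6 measured genes passed the test of ethanol against saline. At an unadjusted p under 0.05 in limma 0 of 6 passed, where 5.22% of all 19938 genes did (2.8% as higher and 2.41% as lower after ethanol), and 0 of 6 passed in the methods' t-test. Pools of the groups were separate in 0 of the 6 genes and in 10.4% of all genes. After adjustment over the 23410 tested probe sets, 0 (0.0%) passed in limma, with a lowest adjusted p = 0.931. The median log2 change (ethanol minus saline) was 0.01 over the 6 genes and 0.00 over all genes. For each of the 6 genes the 95% confidence interval of the change lay within 1.2-fold in either direction, and it did so too under every alternative setting in which the gene was tested. These bounds hold for the array values. Ntf5 (mean 4.21) lay below the level of receptor genes, and Bdnf (6.03) and Ngfr (6.01) were not far above it. The p-values measure the spread between pools of different mice, and litters shared between the groups were not part of the fit.

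Bdnf encodes brain-derived neurotrophic factor, the ligand of TrkB. Its values were 5.97, 6.08 and 6.04 in ethanol pools 1, 2 and 3, against 5.99, 6.09 and 6.03 in saline pools 1, 2 and 3. The groups overlapped almost fully, and the whole spread of the 6 pools was 0.12 on the log2 scale. The log2 change was -0.01 ± 0.05 (SE), or 0.925 to 1.07 times the saline level at 95% confidence (limma, unadjusted p = 0.891, adjusted p = 0.994). The sign of this change was not stable, since it was 0.02 without ethanol pool 1 and 0.02 without saline pool 2. Ntf5 encodes the other ligand of TrkB that was measured, and it lay below the level of receptor genes in every pool. It read 4.22, 4.26 and 4.16 in ethanol pools 1, 2 and 3 and 4.17, 4.32 and 4.16 in saline pools 1, 2 and 3, so that all ethanol values fell inside the saline range.

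The Bdnf gene is read from several starts, each with a first exon of its own joined to the same coding exon, and the transcripts cannot be told apart by the single probe set, which is annotated to 11 RefSeq mRNAs. RefSeq promoter windows (assembly GRCm38.p6) list 7 starts for Bdnf, and the 250 bases before each were searched on both strands for the core of the cAMP response element, TGACG, the letters bound by CREB and its relative ATF1. The core was found before 1 of the 7 starts. The full palindrome TGACGTCA, which contains the core, was found before 0 of 7. Over all 32851 windows of this length the core was present in 17.8% and the palindrome in 1.55%. The matching stretch is shown because it is the kind of element through which neuronal activity is known to act on Bdnf, and its capitals mark the core, which lies on the opposite strand at position -35 from the start (chr2:109692388-109692417, plus strand).
Bdnf: atatgacagctcaCGTCAaggcagcgtgga

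**Figure D1:**
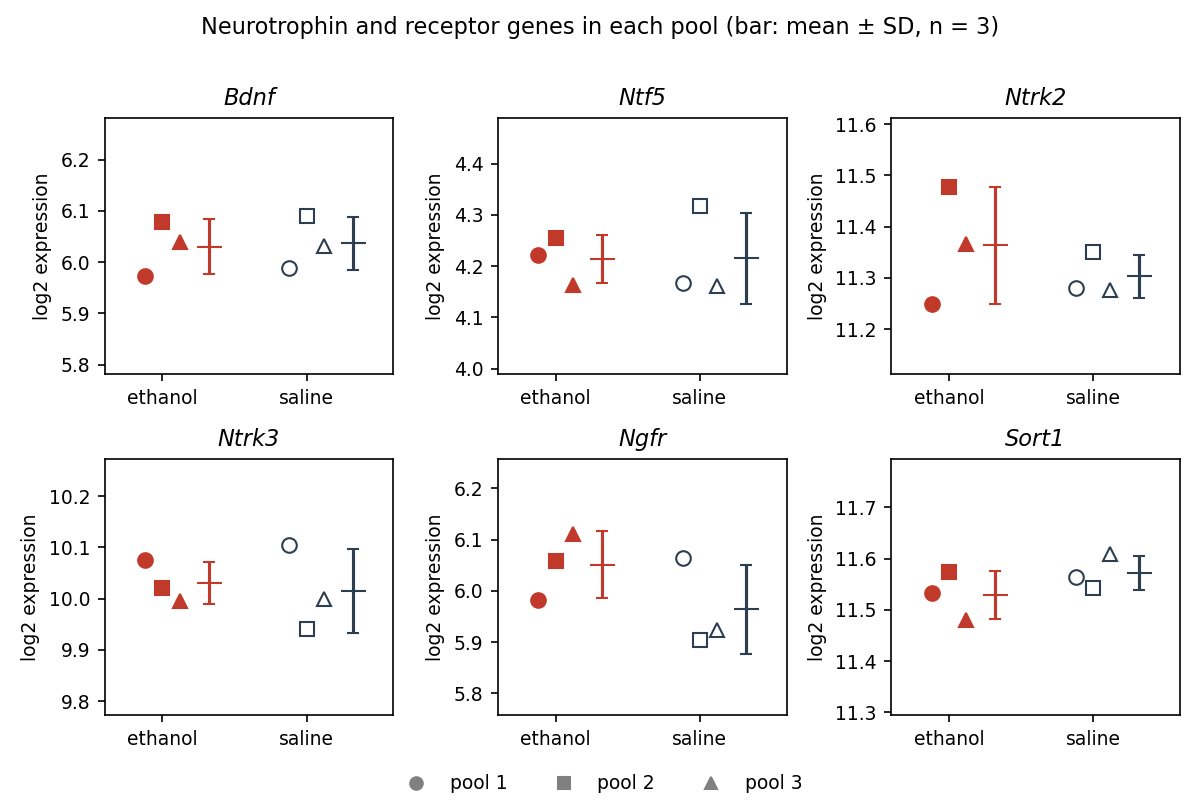
Log2 expression of the 6 measured genes in each pool, with filled symbols for ethanol, open symbols for saline and a bar for the mean ± SD of 3 pools; every panel spans 0.5 log2 units. The groups overlap in all 6 genes, and Ntrk2 has its highest and its lowest value in ethanol pools, at 11.48 and 11.25.

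Ntrk2 encodes TrkB, whose full-length form has a kinase and whose truncated forms, abundant in astrocytes, lack it. The probe set is annotated to 3 RefSeq mRNAs and does not separate these forms. Ntrk2 read 11.25, 11.48 and 11.37 in ethanol pools 1, 2 and 3, against 11.28, 11.35 and 11.28 in saline pools 1, 2 and 3. Of the ethanol pools 0 lay inside the saline range, since pools 2 and 3 were above it and pool 1 was below it. The SD was 0.11 between ethanol pools and 0.04 between saline pools (n = 3 each). The log2 change was 0.06 ± 0.06 (SE), or 0.948 to 1.15 times the saline level (limma, unadjusted p = 0.34, adjusted p = 0.951). It was 0.12 without ethanol pool 1 and 0.00 without ethanol pool 2, and did not pass in either case. The thalamus markers had another order of the ethanol pools, highest in pool 1, where Ntrk2 was lowest. Astrocyte markers deviated from saline by -0.02, -0.07 and -0.01 on average for ethanol pools 1, 2 and 3, and so were lowest of these in pool 2, where Ntrk2 was highest. They lay at -0.05, 0.03 and 0.02 for saline pools 1, 2 and 3. Choroid plexus markers were highest in ethanol pool 1 and lowest in ethanol pool 2, the reverse of Ntrk2. Markers of hippocampal pyramidal and granule cells were highest in pool 2 of each group, as Ntrk2 was. These deviated by 0.011, 0.034 and -0.012 for ethanol pools 1, 2 and 3, and by -0.001, 0.016 and -0.015 for saline pools 1, 2 and 3. The part of these lists in the values of Ntrk2 was not tested. In these bulk samples fewer cells of a type and less RNA per cell cannot be told apart.

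Ntrk3 encodes TrkC, the receptor of the neurotrophin made from Ntf3. It read 10.08, 10.02 and 10.00 in ethanol pools 1, 2 and 3, against 10.10, 9.94 and 10.00 in saline pools 1, 2 and 3. All 3 ethanol values were inside the saline range. The log2 change was 0.02 ± 0.05 (SE), or 0.933 to 1.1 times the saline level (limma, unadjusted p = 0.762, adjusted p = 0.987).

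Ngfr encodes p75, a receptor of the tumour necrosis factor receptor family that binds every neurotrophin and, with sortilin, their precursors. Of the 6 genes it had the largest difference between the groups, yet its pools overlapped. It read 5.98, 6.06 and 6.11 in ethanol pools 1, 2 and 3, against 6.06, 5.90 and 5.92 in saline pools 1, 2 and 3. All 3 ethanol pools were above the saline mean, but 2 of them were inside the saline range because saline pool 1 was high. The log2 change was 0.09 ± 0.06 (SE), or 0.972 to 1.16 times the saline level (limma, unadjusted p = 0.159, adjusted p = 0.931). Without saline pool 1 it was 0.14 ± 0.05 and passed the threshold (limma, unadjusted p = 0.0318), the only alternative in which any of the 6 genes did. Fibroblasts and other cells of the meninges can express p75, and their markers deviated from saline by 0.28, -0.11 and 0.18 on average for ethanol pools 1, 2 and 3 and by -0.07, -0.06 and 0.13 for saline pools 1, 2 and 3. Of these 18 markers 0 passed. The order of the pools in this list was not that of Ngfr, and its part in the difference was not tested.

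Sort1 encodes sortilin, which carries BDNF into secretory vesicles and is the partner of p75 for the precursors. It read 11.53, 11.57 and 11.48 in ethanol pools 1, 2 and 3, against 11.56, 11.54 and 11.61 in saline pools 1, 2 and 3. Saline pool 3 was above all the ethanol pools, and 2 ethanol pools were below the saline range. The log2 change was -0.04 ± 0.04 (SE), or 0.908 to 1.04 times the saline level (limma, unadjusted p = 0.337, adjusted p = 0.95).

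**Figure D2:**
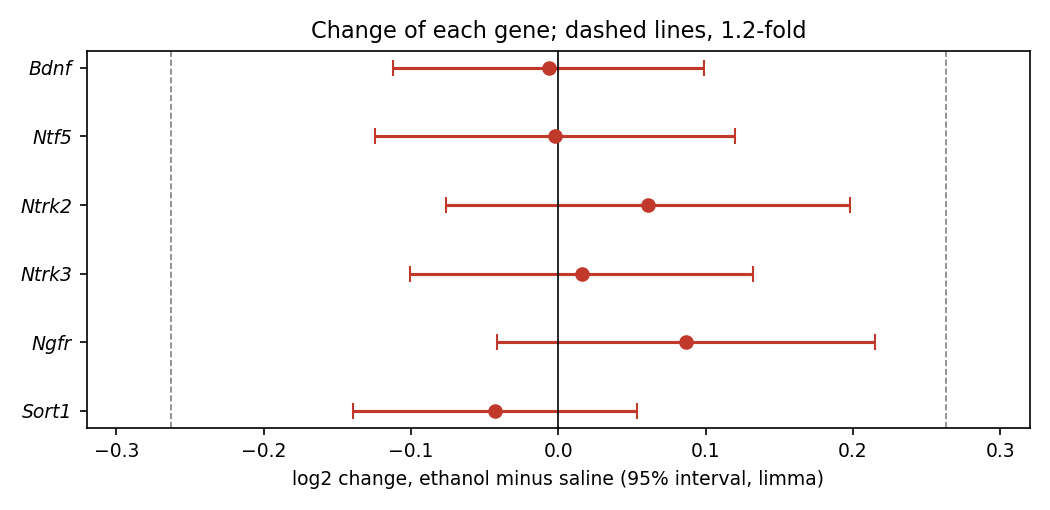
Log2 change (ethanol minus saline) of the 6 measured genes with its 95% confidence interval from limma, 3 pools per group. All intervals cross 0 and end inside the dashed lines at 1.2-fold, and the highest upper bound is that of Ngfr at 1.16-fold.

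The next question was whether a ligand and its receptor, or a receptor and another receptor or partner, shifted against each other. It was asked with the difference of their log2 values within each pool. An exact two-sided permutation test of 3 pools against 3 cannot go below p = 0.1. Of 4 planned pairs 3 could be formed, since Ntf3 was not analysed here. Bdnf minus Ntrk2 changed by -0.07 (ethanol minus saline; exact permutation p = 0.2, adjusted over the pairs p = 0.45), Ntrk2 minus Ngfr by -0.03 (exact permutation p = 0.9, adjusted p = 0.9) and Ngfr minus Sort1 by 0.13 (exact permutation p = 0.3, adjusted p = 0.45). The balance of p75 and sortilin deviated from saline by 0.06, 0.09 and 0.24 in ethanol pools 1, 2 and 3, against 0.11, -0.03 and -0.08 in saline pools 1, 2 and 3. Saline pool 1 was above ethanol pools 1 and 2, and no pair separated the groups.

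The pattern of Ntrk2 over the pools was shared by the 3 protein-coding genes that follow it on the chromosome. Slc28a3, which directly precedes it and lies below the level of receptor genes, did not share it (r = -0.698). Further before it and above that level, Rmi1 at place -2 had r = 0.909 and Hnrnpk at place -3 had r = -0.253. Among 12445 genes above the level of receptor genes, the one most like Ntrk2 over the 6 pools was Naa35 (Pearson r = 0.998, Spearman rho = 0.943), a subunit of an enzyme that acetylates the start of proteins, and in the RefSeq gene order Naa35 is place 2 after Ntrk2 among protein-coding genes. Agtpbp1, a carboxypeptidase that shortens the glutamate tails of tubulin and stands between them, had r = 0.976, and Golm1, a Golgi membrane protein at place 3, had r = 0.974. Only 27 of the 12445 genes (0.217%) were above r = 0.95. These are descriptions over 6 pools that share arrays and a normalization, and the neighbours were looked up after the likeness was seen.

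These neighbours also varied more between pools than Ntrk2 itself. Naa35 read 9.50, 9.97 and 9.73 in ethanol pools 1, 2 and 3, against 9.55, 9.73 and 9.56 in saline pools 1, 2 and 3. Golm1 read 9.27, 9.75 and 9.58 in ethanol pools 1, 2 and 3, against 9.32, 9.57 and 9.30 in saline pools 1, 2 and 3. In Ntrk2, Agtpbp1, Naa35 and Golm1 alike ethanol pool 2 was highest and ethanol pool 1 lowest, and saline pool 2 was the highest of the saline pools. On the other side Slc28a3, a nucleoside transporter below the level of receptor genes, ran the opposite way, at 4.94, 4.50 and 4.70 in ethanol pools 1, 2 and 3. Its saline pools read 4.64, 4.58 and 4.63. Without ethanol pool 2, r with Ntrk2 was 0.994 for Naa35, 0.985 for Golm1 and 0.92 for Agtpbp1. Without ethanol pools 1 and 2, which are farthest from the median of Ntrk2, it was 0.992, 0.995 and 0.872 for these genes. For Slc28a3 it was -0.543 without ethanol pool 2 and 0.195 without ethanol pools 1 and 2, so that its opposite course rested on those pools. None of them passed between the groups (limma, unadjusted p = 0.507 for Agtpbp1, 0.291 for Naa35, 0.27 for Golm1 and 0.333 for Slc28a3).

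**Figure D3:**
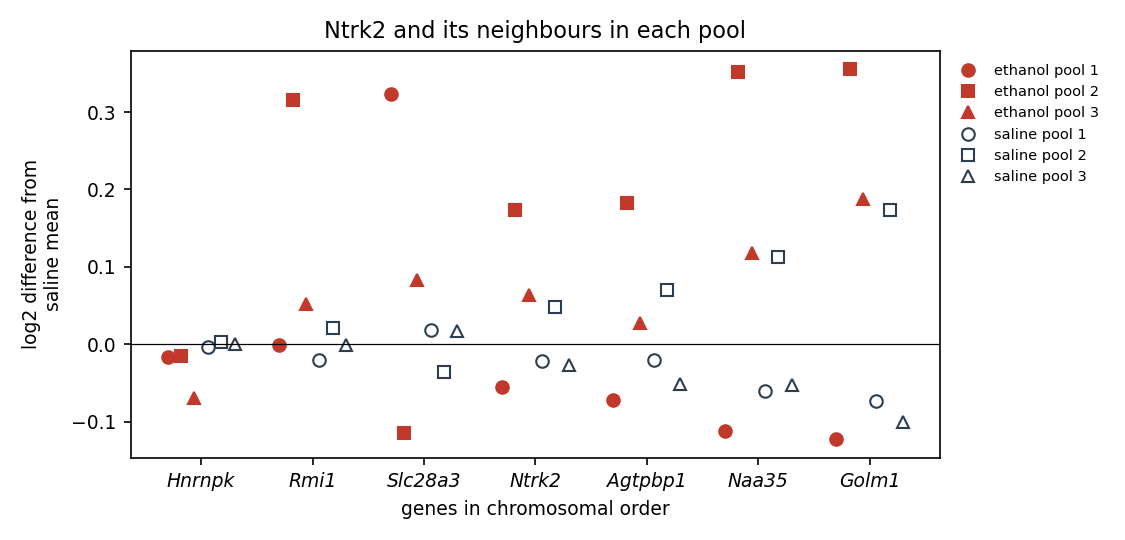
Log2 difference from the saline mean in each pool for Ntrk2 and the protein-coding genes before and after it in chromosomal order, with filled symbols for ethanol and open symbols for saline. Ntrk2, Agtpbp1, Naa35 and Golm1 keep ethanol pool 2 at the top and ethanol pool 1 at the bottom, Slc28a3 is turned round, and Hnrnpk is nearly flat. Rmi1 also has ethanol pool 2 at the top, but its lowest value is in saline pool 1.

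For Bdnf the genes most like it over the 6 pools among 12445 were Armh4 (r = 0.989), the serotonin receptor gene Htr5b (r = 0.988) and Sec61b (r = 0.982), a subunit of the channel that takes new proteins into the endoplasmic reticulum. As Bdnf varied by only 0.12 in all, such likeness rests on small differences, and 26 genes were above r = 0.95. The gene after Bdnf, Lin7c, had r = 0.516.

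Other genes of neurotrophin signalling were described through 6 lists, in which 163 of 186 genes were measured. At an unadjusted p under 0.05 in limma 2 were higher and 10 lower after ethanol, or 7.36% of them, against 5.22% of all genes, and 0 passed after adjustment. Pools were separate in 10.4% of them, the same share as over all genes. The median log2 change was -0.02, against 0.00 over all genes. Without ethanol pool 3 or without saline pool 1 only 7 passed in either case, of which 4 and 6 had also passed with all pools. The lists were chosen with earlier results of these data known and are given as counts. Of 16 oligodendrocyte markers 0 passed as higher and 4 as lower, and the part of that list in these counts was not tested.

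Among 20 genes for the cutting, sorting and release of neurotrophins, 0 were higher and 1 was lower (5%, against 5.22% of all genes). This was Pcsk1, a convertase that cuts precursors in secretory granules, which read 8.84, 8.93 and 8.83 in ethanol pools 1, 2 and 3, against 9.01, 8.93 and 9.01 in saline pools 1, 2 and 3. Its log2 change was -0.12 ± 0.05 (SE; limma, unadjusted p = 0.0307), and ethanol pool 2 and saline pool 2 read alike to the second decimal. It passed in 2 of 6 fits with a pool left out. Cpe, which sorts BDNF into granules, had a log2 change of -0.03 ± 0.05, and Sorl1, a relative of sortilin, of -0.08 ± 0.05. Of the 20 genes 18 had a mean below saline, where 49.9% of all genes did. In the other lists, described below, most genes were below saline too. They were 27 of 37 Trk adaptors and kinases, 17 of 28 p75 partners and 13 of 22 regulators of Bdnf. The rest were 16 of 22 induced genes and 20 of 34 genes of other families. The mean of the list of 20 genes lay between -0.05 and -0.03 in the ethanol pools. It lay at 0.005, -0.03 and 0.03 in saline pools 1, 2 and 3, so that the groups overlapped.

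Of 37 adaptors and kinases downstream of the Trk receptors, 0 were higher and 0 lower. The abundant Camk2a, a kinase of synaptic plasticity, had a log2 change of 0.02 ± 0.04 (SE), and Pdpk1, which switches on AKT, of -0.03 ± 0.05. Of 28 partners and effectors of p75, 1 was higher and 2 were lower (10.7%, against 5.22% of all genes). Traf4, an adaptor that binds p75, read 7.64, 7.80 and 7.71 in ethanol pools 1, 2 and 3, against 7.34, 7.61 and 7.58 in saline pools 1, 2 and 3, with a log2 change of 0.21 ± 0.08 (limma, unadjusted p = 0.0249). It passed in 3 of 6 fits with a pool left out, and not without ethanol pool 2, ethanol pool 3 or saline pool 1. It was 0.12 without saline pool 1 and also missed the threshold by the methods' t-test. Mapk8, which encodes the stress kinase JNK1, was lower by a log2 change of -0.11 ± 0.04, and Magi1, a scaffold of cell junctions, by -0.13 ± 0.06. Mapk8 and Magi1 passed in 2 of 6 and in 1 of 6 fits with a pool left out. The other JNK genes of the list, Mapk9 and Mapk10, changed by -0.04 ± 0.04 and -0.02 ± 0.04 and did not pass.

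Of 22 regulators of Bdnf transcription, 0 were higher and 2 lower (9.09%, against 5.22% of all genes). Atf1, a relative of CREB that binds the core shown above, read 7.23, 7.27 and 7.02 in ethanol pools 1, 2 and 3, against 7.33, 7.41 and 7.30 in saline pools 1, 2 and 3. The groups were separate, and the log2 change was -0.17 ± 0.07 (SE; limma, unadjusted p = 0.0293). It was -0.10 without ethanol pool 3 and missed the threshold there and without saline pool 2. Rest, a repressor of neuronal genes, read 6.00, 5.80 and 5.90 in ethanol pools 1, 2 and 3, against 5.96, 6.08 and 6.16 in saline pools 1, 2 and 3, and changed by -0.17 ± 0.07 (unadjusted p = 0.0364). Rest passed in 2 of 6 fits with a pool left out, and by the methods' t-test neither gene passed.

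Of 22 genes that BDNF and neuronal activity induce, 0 were higher and 2 lower (9.09%, against 5.22% of all genes). The median log2 change of this list was -0.06. Arc, a synaptic protein whose mRNA BDNF brings to dendrites, read 8.88, 9.20 and 8.66 in ethanol pools 1, 2 and 3, against 9.21, 9.39 and 9.07 in saline pools 1, 2 and 3. The groups overlapped, the log2 change was -0.31 ± 0.13 (SE; limma, unadjusted p = 0.0397), and Arc missed the threshold by the methods' t-test, under quantile normalization and in 4 of 6 fits with a pool left out. The change was -0.19 without ethanol pool 3, and with the replicate number as a block Arc passed (limma, unadjusted p = 0.000767). Klf10, a zinc finger factor, was at 8.08, 8.12 and 7.97 in ethanol pools 1, 2 and 3, against 8.43, 8.32 and 8.22 in saline pools 1, 2 and 3, and passed in all 6 fits with a pool left out. The mean of the list lay at -0.12, 0.06 and -0.15 in ethanol pools 1, 2 and 3, against 0.03, 0.03 and -0.07 in saline pools 1, 2 and 3. Ethanol pool 2 was thus above every saline pool, while the other ethanol pools were below them.

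Of 34 genes of other neurotrophic factor families, 1 was higher and 3 were lower (11.8%, against 5.22% of all genes). Cdnf, a factor of the endoplasmic reticulum that protects dopamine neurons, read 5.37, 5.43 and 5.45 in ethanol pools 1, 2 and 3, against 5.33, 5.09 and 5.20 in saline pools 1, 2 and 3, with a log2 change of 0.21 ± 0.06 (SE; limma, unadjusted p = 0.00795) and a mean at the level of receptor genes. Clcf1, a ligand of the receptor for ciliary neurotrophic factor, was also at that level and changed by -0.16 ± 0.05 (unadjusted p = 0.0107). Both passed in all 6 fits with a pool left out. Vegfa, the growth factor of blood vessels, changed by -0.16 ± 0.06 (unadjusted p = 0.0376) and passed in 2 of 6 such fits, and not by the methods' t-test. Erbb3, a receptor for neuregulins and named after its values were seen, was the remaining gene that passed, with a log2 change of -0.12 (unadjusted p = 0.0465).

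**Figure D4:**
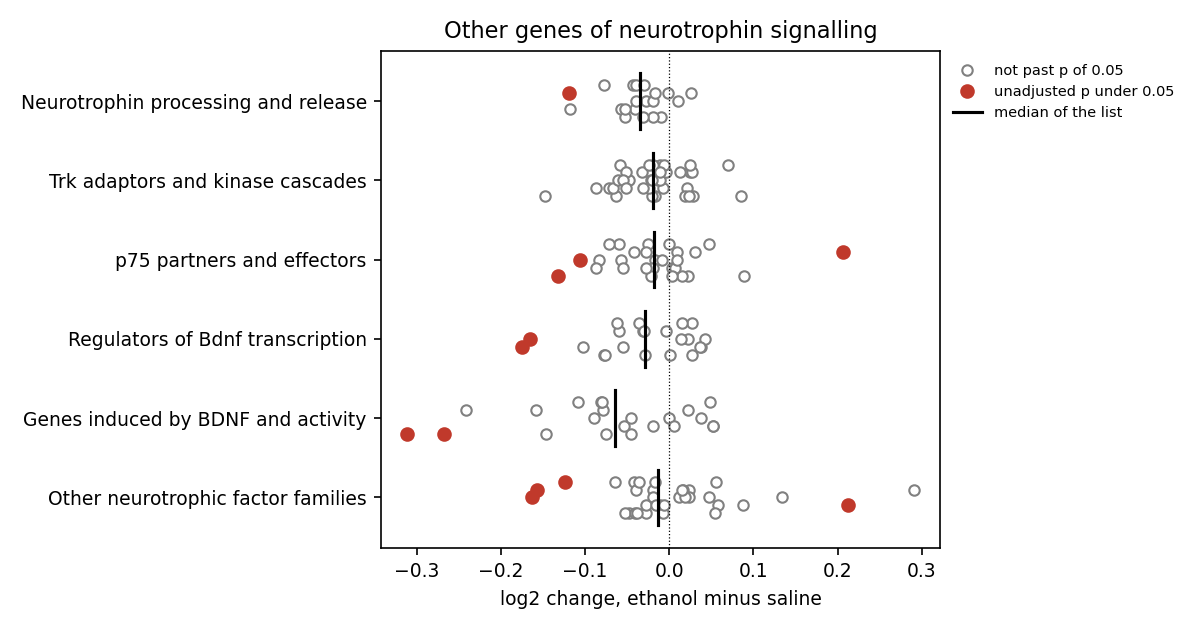
Log2 change (ethanol minus saline) of 163 genes in 6 lists of neurotrophin signalling, with filled circles for an unadjusted p under 0.05 in limma and a black line at the median of each list. Medians lie between -0.06 and -0.01, and the 12 filled circles are 10 lower and 2 higher genes.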

How the data were processed

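Hippocampal RNA of 6 pools was hybridized to Mouse Gene 1.0 ST arrays. The authors summarized the probes of each gene by RMA, and the deposited values are log2 expression. For the RMA software, its version and the build of the array annotation, the entry is: not given in the sources used here. The deposited values run from 3.51 to 13.92, with array medians from 5.84 to 5.89, and were used without further normalization. Gene symbols came from the platform annotation. Of 35556 probe sets, 21789 had 1 symbol, 1621 several and 12146 none, and the 23410 with a symbol were tested. Each gene was read from its brightest probe set, and 2 older symbols in the lists were updated through RefSeq (GRCm38.p6), which was also used for gene order and promoter windows. The groups were compared by limma 3.58.1 (lmFit, then eBayes; R 4.3.3) in a two-sided test without covariates or a filter, with Benjamini-Hochberg adjustment over all tested probe sets. The fit was first checked on simulated data. For 2 groups the ANOVA that the methods name is the t-test called the methods' t-test here. Precision is limited by the number of arrays (median standard error 0.0492 on the log2 scale). The genes studied and the gene lists were chosen with earlier results of these data known. The rule for named genes took from each list the passing genes, at most 3 by size of change. Where fewer than 2 passed, the 2 of highest mean were added. For likeness it took the 3 genes most like Bdnf. The neighbours and likenesses of Ntrk2 were added after their values were seen. Alternatives were each array left out, array weights, an intensity trend, the methods' t-test, quantile normalization, median centring, the replicate number as a block, averaging probe sets of a gene, and testing all probe sets, those with 1 symbol or those above the level of receptor genes.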

Additional observations from a re-analysis of the deposited data

How the results depend on the processing

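The number of arrays limits all of these results. Of the 6 measured genes 0 passed at an unadjusted p under 0.05 under each alternative, except without saline pool 1, so that the count ran from 0 to 1 over the fits with a pool left out. With a pool left out, Ngfr ran from 0.056 to 0.137, Bdnf from -0.031 to 0.022, Ntf5 from -0.030 to 0.049 and Ntrk3 from -0.021 to 0.061 on the log2 scale, and Ntf5 was at 0.022 with array weights. Ntrk2 minus Ngfr ran from -0.087 to 0.028, Cpe from -0.063 to 0.003 and Pdpk1 from -0.063 to 0.019. The signs of Ntrk2, Ngfr and Sort1 did not turn under any alternative. Of the pathway genes 12 passed in the reported fit, 7 over all rows of the value table and 7 to 15 with a pool left out. These were in part different genes, since only 4 to 7 of the 12 passed again with a pool left out. The methods' t-test passed 11 pathway genes, of which 5 were among the 12. Over all rows 7 of the 12 passed again, and under the other alternatives 9 to 12 did. Of all probe sets 1202 passed in the reported fit, 663 of the 14704 brighter than receptor genes and 1969 of 35556 over all rows, where more or fewer probe sets were tested. The causes of other shifts were not tested. With the replicate number as a block 0 of the 6 genes, 10 pathway genes and 1153 probe sets passed. The deviations of same-numbered pools correlated at -0.0488, -0.022 and 0.0588, and those of differently numbered pools at -0.18 to 0.167. Such correlations cannot decide whether same-numbered pools shared litters, which the sources used here do not state. The block ended the calls of Pcsk1 and Rest among the named genes and raised the p-values of Magi1, Mapk8, Cdnf, Clcf1 and Vegfa. It lowered the unadjusted p (limma) of Arc to 0.000767, Traf4 to 0.0054, Atf1 to 0.0119 and Klf10 to 0.000953.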

Other observations

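Of the genes within 10 places of Ntrk2, some beyond the nearest neighbours also followed its pattern over the 6 pools and others did not. Tut7, a uridylyltransferase for RNA at place 10 after Ntrk2, had r = 0.98 with it, and Isca1, a mitochondrial iron-sulfur assembly factor at place 9, had r = 0.884. Before Ntrk2, Rmi1, a DNA repair protein at place -2, had r = 0.909, while Hnrnpk at place -3, an abundant RNA-binding protein, had r = -0.253 and a range of only 0.072. Further before it, r was 0.815 for 2210016F16Rik, 0.549 for Gkap1, 0.169 for Ubqln1, 0.717 for Idnk, -0.506 for Hnrnpa0 and 0.561 for Klhl3, all above the level of receptor genes. Without ethanol pool 2, r was 0.969 for Tut7, 0.741 for Isca1, 0.839 for Rmi1 and -0.084 for Klhl3. Of the neighbours at places 4 to 8 that were measured, all lay below the level of receptor genes. Their r ran from -0.765 for Spata31d1d to 0.497 for 4921517D22Rik. Neither Tut7 (limma, unadjusted p = 0.226) nor Rmi1 (unadjusted p = 0.147) passed between the groups. The cause of this shared variation between pools was not tested.

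Between the measured genes themselves, the strongest relation over the 6 pools was that of Bdnf and Ntrk3, which ran opposite ways (r = -0.852), and Bdnf and Ntrk2 had r = 0.776. These are descriptions of 6 pools among 15 pairs, and the differences between pools are small in each of these genes.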
